A study of Mus musculus with 451 samples.

Results

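Glycosaminoglycans are long sulfated sugar chains carried by proteoglycans, and 41 genes for their assembly, sulfation and sugar or sulfate supply were examined in single tendon cells. Members were kept where their row of the read count table held 100 or more reads over all cells, which left 33 of the 41 genes, among 10963 genes that passed the same minimum and 25841 genes with at least 1 read. The members below the minimum were Chst3 with 92 reads, Chst7 with 80, Xylt2 with 55, Hs6st1 with 51, Chst1 with 47, Chpf2 with 24, Chsy3 with 18 and B3gnt7 with 0. Of the Chpf2 exon bases 45.9% overlap Smarcd3 on the opposite strand, from which reads counted without strand cannot be told apart. Just inside the minimum were Chst5 with 96 reads in WT and 22 in Mkx-/- cells, Chst2 with 76 and 48, Chst12 with 72 and 63, and Chst14 with 53 and 88. The cells came from tail tendons of C57BL/6 mice aged 4 weeks, either wild-type (WT) or mutants without Mohawk homeobox (Mkx-/-), a transcription factor of the tendon lineage, with the loss in every tissue. Mkx-/- tendons later ossify, and the series followed how their cells diverge from normal tendon cells. Tendons were digested with collagenase I, single cells were caught on a Fluidigm C1 high-throughput chip, and libraries were made with Nextera XT. The table held 227 WT and 224 Mkx-/- cells.

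A glycosaminoglycan chain starts on a serine of a core protein with a short linkage sugar, which is then extended either as chondroitin or dermatan sulfate or as heparan sulfate, whereas keratan sulfate is built on another kind of linkage. Sulfotransferases and epimerases modify the chain in the Golgi with PAPS, the activated form of sulfate, and UDP-sugars serve as building blocks. In tendon, small proteoglycans with chondroitin, dermatan or keratan chains bind collagen fibrils, and cartilage is rich in sulfated chondroitin.

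The labels named neither animal nor chip, so each genotype was 1 sample and no test between genotypes was made. Reads were summed over the cells of a group and scaled to CPM, the reads of a gene per 1000000 reads, and intervals in parentheses are exact 95% intervals that cover counting error only. The counts are reads and not molecules, and 1 cell often held a large part of a gene's reads, so the number of cells with a read and the share of reads in the leading cell are given where they matter. A member was called higher or lower where its ratio passed 1.5-fold and its interval did not hold 0 on the log2 scale. The median depth was 51788 reads per WT cell (13076 to 335813) and 56121 per Mkx-/- cell (14226 to 294791). Clustering without any gene of the pathway gave 3 groups of cells, named from a list of markers. The tendon progenitor-like (TPC-like) cells numbered 98 WT and 94 Mkx-/-, the tenocyte-like (TC-like) cells 73 and 80, and another group without a name, cluster 3, 56 and 50. The tenoblast markers Itm2a and Lgals3, which were not used for naming, summed to 1672 CPM in WT and 2528 CPM in mutant cluster 3. In the other 4 groups they summed to 748 to 1566 CPM. TPC-like cells were led by Cd248 and Glipr2. Cluster 3 was led by Smoc2, Dmkn and Serpine2, and 6 of its 10 leading genes were predicted Gm loci that together took 36139 CPM in WT and 7814 CPM in mutant cluster 3 cells, against 3582 to 5578 CPM in the other 4 groups. TC-like cells were led by the cartilage collagen genes Col2a1 and Col11a2, with Cilp2, Tnmd, Kera, Fmod and Col11a1 also among the leading 10. Of the tendon markers, a read of Col1a1 and Col1a2 was found in every cell, and Scx, the tendon lineage factor, in 56.2% of WT and 42.5% of mutant TC-like cells. Tnmd, found in every TC-like cell, reached 3843 CPM in TC-like cells of WT and 5002 CPM in those of mutant tendons. Mkx itself was lower under the Mkx-/- label, at 15.5 against 33.8 CPM, and among TC-like cells 27.5% of mutant against 61.6% of WT cells held a read of it. Where on the gene the remaining reads lie cannot be seen in gene sums.

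The first comparison asked how the synthesis genes differ between progenitor-like and tenocyte-like cells. Of the 33 members, 10 were lower in TC-like than in TPC-like cells in both genotypes, and 1, Chst5, was higher in both. By the same rule 28.8% of the 10963 genes were lower in both genotypes and 6.31% were higher, so the count of lower members lay near that of all genes. Col1a1, Col1a2 and Sparc took 31.03% of the reads of WT and 21.7% of those of Mkx-/- TC-like cells but 2.71% and 3.25% in TPC-like cells, and the median log2 ratio of all genes was -0.67 in WT and -0.45 in Mkx-/- cells. The member medians were -0.56 and -0.51, and the WT median was above 0 under TMM scaling, median-of-ratios scaling or centring on all genes. Relative to the median of all genes, 7 members were lower in both genotypes (12.4% of all genes) and 4 were higher (12.3% of all genes). The 7 were Ugdh, Ugp2, Papss1, Sulf1, Chst15, Ust and B4galt7, and the 4 were Chpf, Papss2, Hs2st1 and Chst5.

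**Figure D1:**
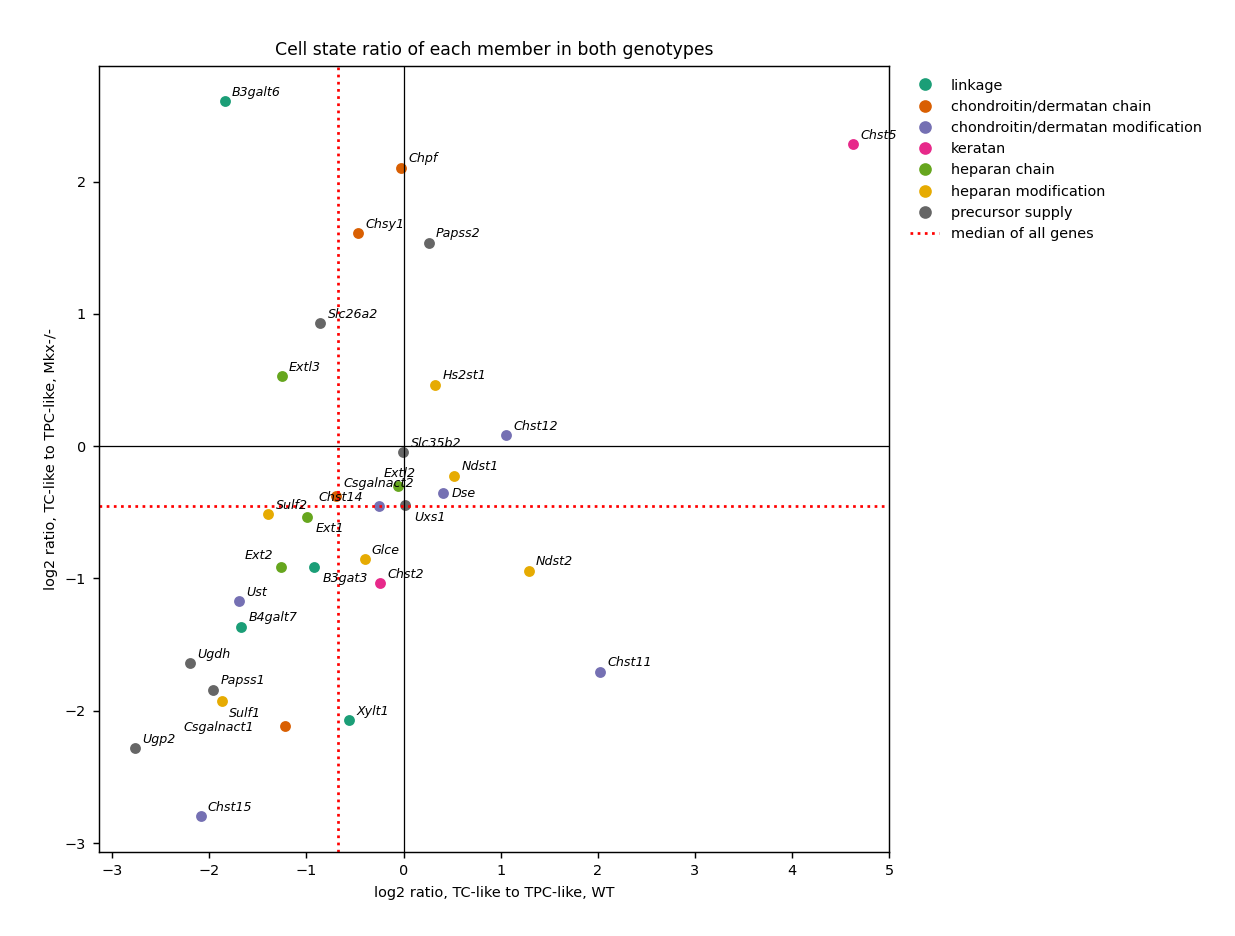
Log2 ratio of TC-like to TPC-like cells in WT (horizontal axis) and Mkx-/- cells (vertical axis) for each of the 33 members, coloured by step, with the median of all genes dotted in red. Ugp2, Ugdh, Chst15, Papss1 and Sulf1 lie at the lower left, and Chpf and Papss2 near 0 in WT and at 2.10 and 1.54 in Mkx-/- cells. The Chst5 values depend on a floor of 3 reads because TPC-like cells held 0 reads.

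Within the supply of UDP-sugars, both enzymes upstream of UDP-glucuronic acid were lower in TC-like cells. Ugp2, which makes UDP-glucose, and Ugdh, which oxidises it to UDP-glucuronic acid for chondroitin, heparan and hyaluronan chains, lie on chromosome 11 at 21221141 to 21271204 and on chromosome 5 at 65804441 to 65827185 (NCBIM37, mm9). Both were read in nearly every TPC-like cell. The 250 bases upstream of their starts, from RefSeq (GRCm38.p6), are shown because both were lower in TC-like cells in both genotypes, with CANNTG (the E-box of basic helix-loop-helix factors, searched on both strands) in capitals.
Ugdh, chr5:65435843-65436092, minus strand: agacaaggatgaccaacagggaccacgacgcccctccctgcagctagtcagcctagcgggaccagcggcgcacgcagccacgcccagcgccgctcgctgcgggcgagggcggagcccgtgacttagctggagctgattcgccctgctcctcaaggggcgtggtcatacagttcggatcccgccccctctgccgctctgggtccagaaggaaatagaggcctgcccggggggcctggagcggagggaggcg
Ugp2, first listed start, chr11:21371268-21371517, minus strand: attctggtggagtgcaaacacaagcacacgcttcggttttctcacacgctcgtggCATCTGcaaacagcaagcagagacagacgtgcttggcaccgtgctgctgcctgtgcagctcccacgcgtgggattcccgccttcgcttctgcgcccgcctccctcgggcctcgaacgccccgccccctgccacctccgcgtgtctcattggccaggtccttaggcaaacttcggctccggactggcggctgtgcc
The Ugdh window held 0 matches of CANNTG and the Ugp2 window 1, and 66.2% of all 32851 promoters in the table held at least 1. TGTCA, a core shared by many homeodomain proteins of the TALE class, had 0 matches on either strand in both windows, and 39.95% of all promoters held it.

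Ugp2 stood at 1906 CPM (1868 to 1945) in WT TPC-like cells, 997 CPM in WT cluster 3 and 279.8 CPM (267 to 293) in WT TC-like cells, a TC-like to TPC-like log2 ratio of -2.77 (-2.84 to -2.69). Mkx-/- cells gave 1693, 839 and 348 CPM and a ratio of -2.28 (-2.35 to -2.22). The level of Ugp2 per cell ranged from 0 to 4553 CPM with a median of 1824 in WT TPC-like cells and from 0 to 1619.8 with a median of 34.7 in WT TC-like cells. The ranges overlapped, but the lower quartile of the WT TPC-like cells was 1233 CPM and the upper quartile of the WT TC-like cells 296 CPM. In Mkx-/- cells the medians were 1615 CPM (TPC-like; 49.6 to 4229) and 64.7 CPM (TC-like; 0 to 2508). Ugp2 was without a read in 1 of 98 WT TPC-like cells and in 19 of 73 WT TC-like cells.

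Ugdh was 1734 CPM (1697 to 1771) in WT TPC-like, 1306 CPM in WT cluster 3 and 378 CPM (363 to 394) in WT TC-like cells, a TC-like to TPC-like log2 ratio of -2.20 (-2.26 to -2.13). In Mkx-/- cells the levels were 1023 CPM (994 to 1052), 1185 and 328 CPM, with a ratio of -1.64 (-1.71 to -1.57). Between genotypes Ugdh was lower in mutant TPC-like cells, at a log2 ratio of -0.76 (-0.81 to -0.71), whereas the ratio was -0.14 in cluster 3 and -0.20 in TC-like cells, both under 1.5-fold. The median per TPC-like cell was 1560.5 CPM in WT (0 to 11566) and 838 in Mkx-/- (0 to 4379). The genotype ranges overlapped, and the upper quartile of Mkx-/- TPC-like cells was 1335 CPM, below the WT median. A second match of the Ugdh transcript lies on chromosome X, 91.95% identical over 1183 of its 2547 bases, so some of its reads may have been placed there or left uncounted. Over the alternatives the WT state ratio of Ugdh ran from -2.32 to -1.52 and that of Ugp2 from -2.89 to -2.10, and each was called under all of them.

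**Figure D2:**
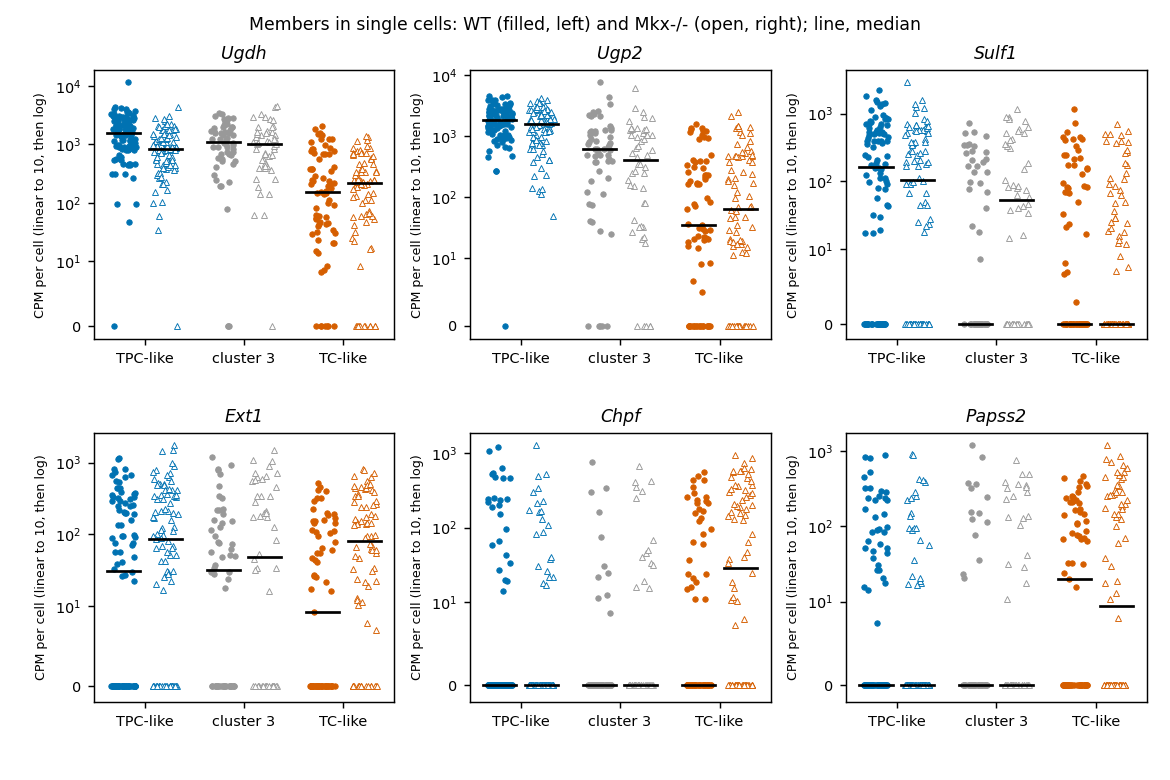
Level per cell (CPM, linear to 10 and then log) of Ugdh, Ugp2, Sulf1, Ext1, Chpf and Papss2 in the 3 cell states, WT filled at left and Mkx-/- open at right, with the median as a line. Ugdh and Ugp2 are read in nearly all TPC-like cells, with medians of 1560.5 and 1824 CPM in WT, while the other 4 genes have many cells at 0 in every state.

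The sulfate side of supply did not share 1 direction. Papss1 and Papss2 both make PAPS from sulfate and ATP, and Papss2 is the form that cartilage depends on. Papss1 was lower in TC-like cells, with 38.3, 32.1 and 9.82 CPM in WT TPC-like, cluster 3 and TC-like cells, and 35.2, 10.7 and 9.83 CPM in the Mkx-/- cells, and log2 ratios of -1.96 (-2.40 to -1.54) for WT and -1.84 (-2.27 to -1.43) for mutant cells. Papss2 levels were 74.9, 80.2 and 89.7 CPM in WT TPC-like, cluster 3 and TC-like cells, and 55.2, 131.6 and 160.4 CPM in the Mkx-/- cells. The Papss2 state ratio was 0.26 (0.068 to 0.45) for WT and 1.54 (1.34 to 1.74) for mutant cells. The isoforms thus differed in direction in both genotypes, with the WT Papss2 ratio under 1.5-fold. Papss2 was also higher in Mkx-/- than in WT TC-like cells, at 0.84 (0.69 to 0.99), and in cluster 3, at 0.71 (0.45 to 0.98), while TPC-like cells gave -0.44 (-0.67 to -0.21). The cluster 3 call was lost under 4 of 14 alternatives. It was read in 38 of 73 WT and 41 of 80 Mkx-/- TC-like cells, and in 37 of 98 and 24 of 94 TPC-like cells. The TC-like shares were thus close, and the difference in TC-like level lay among cells that held a read.

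Slc26a2, the sulfate transporter of the cell surface, had 48.5, 11.5 and 26.8 CPM in WT TPC-like, cluster 3 and TC-like cells, and 13.8, 16.04 and 26.2 CPM in the Mkx-/- cells. Its state ratio was -0.86 (-1.15 to -0.57) for WT and 0.93 (0.51 to 1.36) for mutant cells. The WT call was lost under 7 of 14 alternatives, among them TMM scaling, thinning and centring on all genes, with -0.18 as the value nearest 0. In the Mkx-/- TPC-like cells 60.6% of its 66 reads came from 1 cell, and the genotype ratio in TPC-like cells was -1.82 (-2.23 to -1.42), or -2.64 without the leading cell of each group. Slc35b2, which carries PAPS into the Golgi, stood between 21.8 and 55.9 CPM over the 6 groups, with state ratios of -0.0022 and -0.045. Its genotype ratios were -0.67 in TPC-like, 1.04 in cluster 3 and -0.71 in TC-like cells. Each was called, and the calls held under 10, 12 and 14 of 14 alternatives. Uxs1, which makes UDP-xylose for the linkage sugar, had state ratios of 0.013 and -0.44, and a second match of part of its transcript, 97.2% identical over 523 of 4620 bases, lies on chromosome 6.

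Among the enzymes of the linkage sugar, B4galt7 and B3gat3 were lower in TC-like cells in both genotypes. B4galt7, which adds the first galactose, had 17.2, 4.11 and 5.39 CPM in WT TPC-like, cluster 3 and TC-like cells, and 31.7, 15.6 and 12.3 CPM in the Mkx-/- cells, with state ratios of -1.67 (-2.29 to -1.08) and -1.37 (-1.77 to -0.97). B3gat3, which adds the closing glucuronic acid, had 18.6, 1.23 and 9.82 CPM in WT TPC-like, cluster 3 and TC-like cells, and 19.4, 19.7 and 10.3 CPM in the Mkx-/- cells, with state ratios of -0.92 (-1.41 to -0.44) for WT and -0.92 (-1.38 to -0.46) for mutant cells, and was not called relative to the median of all genes. The WT cluster 3 level of B3gat3 rests on 3 reads in 1 cell. Both genes were read in few cells, at 8 of 98 and 12 of 98 WT TPC-like cells. Xylt1, the xylosyltransferase that starts the chain on the core protein, was read in 48.02% of WT and 52.7% of Mkx-/- cells. Its levels were 85.1, 77.3 and 57.7 CPM in WT TPC-like, cluster 3 and TC-like cells, and 133.1, 141.1 and 31.7 CPM in the Mkx-/- cells, and its state ratio was -0.56 (-0.77 to -0.36) for WT and -2.07 (-2.30 to -1.85) for mutant cells.

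The genes of the chondroitin chain differed in their state ratios between genotypes, a difference that was not tested. Chpf, the chondroitin polymerising factor, and Chsy1, the chondroitin synthase that works with it, extend the chain, whereas Csgalnact1 and Csgalnact2 add its first N-acetylgalactosamine. Chpf (on chromosome 1 at 75471144 to 75476046, mm9) had 72.2, 25.5 and 71.1 CPM in WT TPC-like, cluster 3 and TC-like cells, and 37.5, 87.2 and 161.2 CPM in the Mkx-/- cells. Its state ratio was -0.022 (-0.23 to 0.18) for WT and 2.10 (1.88 to 2.34) for mutant cells. The windows upstream of Chpf and Papss2 are shown because both had a state ratio over 2-fold in Mkx-/- cells and near 0 in WT cells. Relative to the median of all genes, both were higher in TC-like cells in WT as well.
Chpf, chr1:75479472-75479721, minus strand: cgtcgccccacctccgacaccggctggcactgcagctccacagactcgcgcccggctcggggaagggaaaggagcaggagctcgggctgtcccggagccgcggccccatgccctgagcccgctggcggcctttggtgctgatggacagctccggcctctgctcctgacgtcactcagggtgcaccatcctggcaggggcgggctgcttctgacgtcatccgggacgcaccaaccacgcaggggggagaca
Papss2, first listed start, chr19:32595465-32595714, plus strand: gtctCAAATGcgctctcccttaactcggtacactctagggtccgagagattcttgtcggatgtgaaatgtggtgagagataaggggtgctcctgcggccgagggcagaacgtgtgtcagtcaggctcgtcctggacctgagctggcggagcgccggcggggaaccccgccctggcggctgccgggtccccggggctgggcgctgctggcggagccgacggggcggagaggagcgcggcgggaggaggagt
CANNTG had 0 matches in the Chpf window and 1 in the Papss2 window, and TGTCA had 0 and 1.

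Chpf was read in 30 of 73 WT and 48 of 80 Mkx-/- TC-like cells, against 25 of 98 and 22 of 94 TPC-like cells, and no cell held more than 9.58% of its TC-like reads in WT or 6.64% in Mkx-/- cells. The median Mkx-/- TC-like cell stood at 29.02 CPM (0 to 947) and the median WT TC-like cell at 0 (0 to 557), so the groups overlapped. Chsy1 had state ratios of -0.47 (-0.83 to -0.11), not called, for WT and 1.61 (1.12 to 2.12) for Mkx-/- cells, and 48.9% of its exon bases overlap Gm17504 on the opposite strand, from which reads counted without strand cannot be told apart. Csgalnact1 was lower in TC-like cells in both genotypes, with 19.2, 52.7 and 8.24 CPM in WT TPC-like, cluster 3 and TC-like cells, and 33.1, 39.1 and 7.66 CPM in the Mkx-/- cells and ratios of -1.22 (-1.74 to -0.72) and -2.11 (-2.59 to -1.65). The WT call of Csgalnact1 was lost relative to the median of all genes. Csgalnact2 had state ratios of -0.69 and -0.38. The first was called, but the call held under 6 of 14 alternatives and was lost relative to the median of all genes. A second match of part of the Csgalnact2 transcript, 90.4% identical over 296 of 3661 bases, lies on chromosome 15.

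Of the genes that sulfate or epimerise chondroitin and dermatan chains, Chst15 and Ust were lower in TC-like cells in both genotypes. Chst15, which adds a second sulfate to an already sulfated N-acetylgalactosamine, had 58.7, 24.7 and 13.8 CPM in WT TPC-like, cluster 3 and TC-like cells, and 72.3, 34.1 and 10.4 CPM in the Mkx-/- cells, with state ratios of -2.09 (-2.45 to -1.74) and -2.80 (-3.18 to -2.43). It was read in 18 of 98 WT and 24 of 94 Mkx-/- TPC-like cells and in 8 of 73 and 9 of 80 TC-like cells. Ust, which sulfates uronic acid, had 18, 18.9 and 5.55 CPM in WT TPC-like, cluster 3 and TC-like cells, and 20.2, 7.82 and 8.97 CPM in the Mkx-/- cells, with ratios of -1.70 (-2.31 to -1.12) and -1.17 (-1.66 to -0.70). Chst11, the main sulfotransferase of chondroitin in cartilage, had a state ratio of 2.02 (1.47 to 2.62) for WT and -1.71 (-2.07 to -1.35) for mutant cells. With cells thinned to 28000 reads, Chst11 was read in 4.65% of TPC-like and 17.8% of TC-like cells in WT. In mutant cells the shares were 7.06% and 16.25%, a difference of 9.19 percentage points (Newcombe interval -0.73 to 19.5). The lower mutant level was thus not seen in the share of cells. Dse, the epimerase that turns chondroitin into dermatan, had ratios of 0.40 and -0.36 and was called in neither genotype. Chst14, the sulfotransferase of dermatan, stood at -0.26 and -0.45, and Chst12 at 1.06, a call, and 0.081.

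Keratan sulfate members rested on few cells. Chst5, a sulfotransferase for N-acetylglucosamine in keratan chains, had 0 reads in TPC-like cells of both genotypes, 96 reads in 6 WT TC-like cells and 21 reads in 2 Mkx-/- TC-like cells. Its TC-like level was 15.2 CPM (12.3 to 18.6) for WT and 3.04 CPM (1.88 to 4.64) for the mutant. Against a floor of 3 reads in TPC-like cells, Chst5 was 24.8-fold higher in WT and 4.86-fold higher in Mkx-/- TC-like cells. These values depend on the floor and are not lower limits. Of the 21 Mkx-/- reads, 90.5% came from 1 cell, and no ratio could be formed without it. Chst2, a related sulfotransferase, had 13 WT and 8 Mkx-/- cells with a read and state ratios of -0.24 (-0.97 to 0.48) and -1.03 (-1.96 to -0.13).

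Within heparan sulfate synthesis, Ext2 and Sulf1 were lower in TC-like cells in both genotypes. Ext1 and Ext2 form the polymerase of the chain. Ext2 had 103.3, 44.4 and 42.9 CPM in WT TPC-like, cluster 3 and TC-like cells, and 85.6, 73.2 and 45.6 CPM in the Mkx-/- cells, with ratios of -1.27 (-1.49 to -1.05) and -0.91 (-1.13 to -0.70), and the Mkx-/- call was lost relative to the median of all genes. Ext1 had ratios of -0.997 (-1.16 to -0.84) and -0.54 (-0.66 to -0.42), and Extl2 of -0.056 and -0.30. Extl3, which starts the heparan chain, stood at -1.25 for WT and 0.53 for mutant cells. The WT call of Ext1 held under 10 of 14 alternatives and that of Extl3 under 13. Both were lost relative to the median of all genes. Sulf1, an extracellular sulfatase that trims heparan sulfate, stood at 369 CPM (352 to 386) in WT TPC-like and 101.1 CPM (93.4 to 109.2) in WT TC-like cells and at 305 and 80.3 CPM in the Mkx-/- cells, with ratios of -1.87 (-2.0 to -1.74) and -1.93 (-2.07 to -1.79). Sulf1 was read in 69 of 98 WT and 62 of 94 Mkx-/- TPC-like cells and in 36 of 73 and 39 of 80 TC-like cells. Its median level per cell was 160.9 CPM in WT TPC-like cells (0 to 2224) and 0 in WT TC-like cells (0 to 1174), so the ranges overlapped. Sulf2, its relative, was lower in WT TC-like cells, at -1.39 (-1.52 to -1.26), and stood at -0.51 (-0.64 to -0.39) in Mkx-/- cells. The other modification genes, Ndst1, Ndst2, Hs2st1 and Glce, had WT state ratios from -0.40 to 1.29 and Mkx-/- ratios from -0.94 to 0.46.

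**Figure D3:**
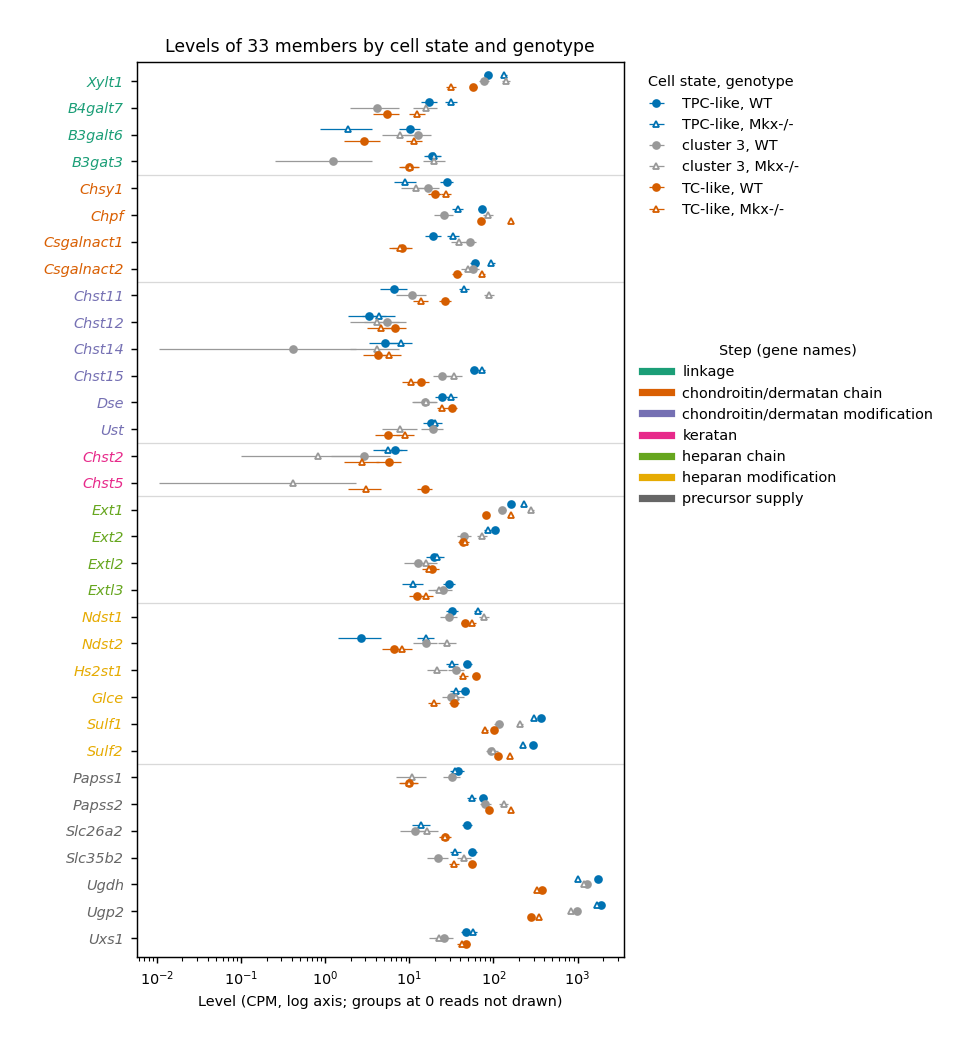
Level (CPM, log axis) of each of the 33 members in TPC-like (blue), cluster 3 (grey) and TC-like (orange) cells, WT filled and Mkx-/- open, with exact Poisson intervals. Levels are not divided by gene length and are to be compared within a gene, as for Ugp2, where the TPC-like values of 1906 and 1693 CPM lie above the TC-like values of 279.8 and 348 CPM.

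Cluster 3 was also compared with TPC-like cells. Of the members, 7 were lower in cluster 3 in both genotypes (11.8% of all genes) and 1 was higher (6.8% of all genes). Relative to the median of all genes these counts were 5 (10% of all genes) and 2 (8.15% of all genes). The lower ones were Ugp2, Uxs1, B4galt7, Chst15, Dse, Chst2 and Sulf2, of which Dse and Chst2 dropped out relative to that median. The WT calls of Chst2 and Dse were lost under 6 and 4 of 14 alternatives and the Mkx-/- calls under 3 and 1. The higher one was Ndst2, which had 3 WT and 6 Mkx-/- cluster 3 cells with a read and a ratio of -1.44 in Mkx-/- cells when clustered in 10 dimensions. Ugp2 had ratios of -0.94 (-1.001 to -0.87) and -1.01 (-1.08 to -0.94), so that it stood between its TPC-like and TC-like levels. Ugdh, by contrast, had -0.41 (-0.47 to -0.35) and 0.21 (0.14 to 0.28) and was not called, and Sulf2 had -1.68 (-1.89 to -1.48) and -1.18 (-1.38 to -0.97).

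Depth and markers of other cell types also differed between the states. The median depth was 83043 reads in WT and 72897 in Mkx-/- TC-like cells against 45028.5 and 47846.5 in TPC-like cells. The 5 chondrocyte markers outside the pathway summed to 582 and 409 CPM in WT and Mkx-/- TC-like cells against 21.7 and 30.2 in TPC-like cells, and the 5 Schwann cell markers to 263 and 357 against 19.2 and 56.05. Endothelial markers, with all 6 read in WT TC-like cells, stood at 69.4 CPM there and at 3.18 in Mkx-/- TC-like cells, where 4 of 6 were read. Muscle markers had 0 reads in Mkx-/- TC-like cells, and the leukocyte markers summed to 208.9 and 246 CPM in TPC-like against 86.3 and 10.1 CPM in TC-like cells. Without the 16 WT and 10 Mkx-/- cells that held 3 or more markers of 1 other type (chondrocytes not counted), the TC-like to TPC-like log2 ratios were -2.63 and -2.36 for Ugp2, -1.70 and -1.94 for Sulf1, and 2.06 for Chpf in Mkx-/- cells. The part of the chondrocyte markers in these results was not tested. With every cell thinned to 28000 reads, the Ugp2 ratios were -2.88 and -2.38.

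The second comparison asked how the members differ between Mkx-/- and WT cells. Over all cells, 8 members were higher in Mkx-/- cells (24.2% of the members, against 16% of all genes) and 3 were lower (9.09%, against 13.1% of all genes). The higher ones were the linkage enzyme B4galt7, the chondroitin chain genes Chpf and Csgalnact2, the sulfotransferases Chst11 and Chst14, and the heparan genes Ext1, Ndst1 and Ndst2. The lower ones were the keratan sulfotransferases Chst2 and Chst5 and the sulfate transporter Slc26a2. The member median log2 ratio was 0.018, and that of all genes was 0.055. In the precursor supply 6 of 7 members were not called, and their ratios over all 7 ran from -0.66 to 0.53.

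**Figure D4:**
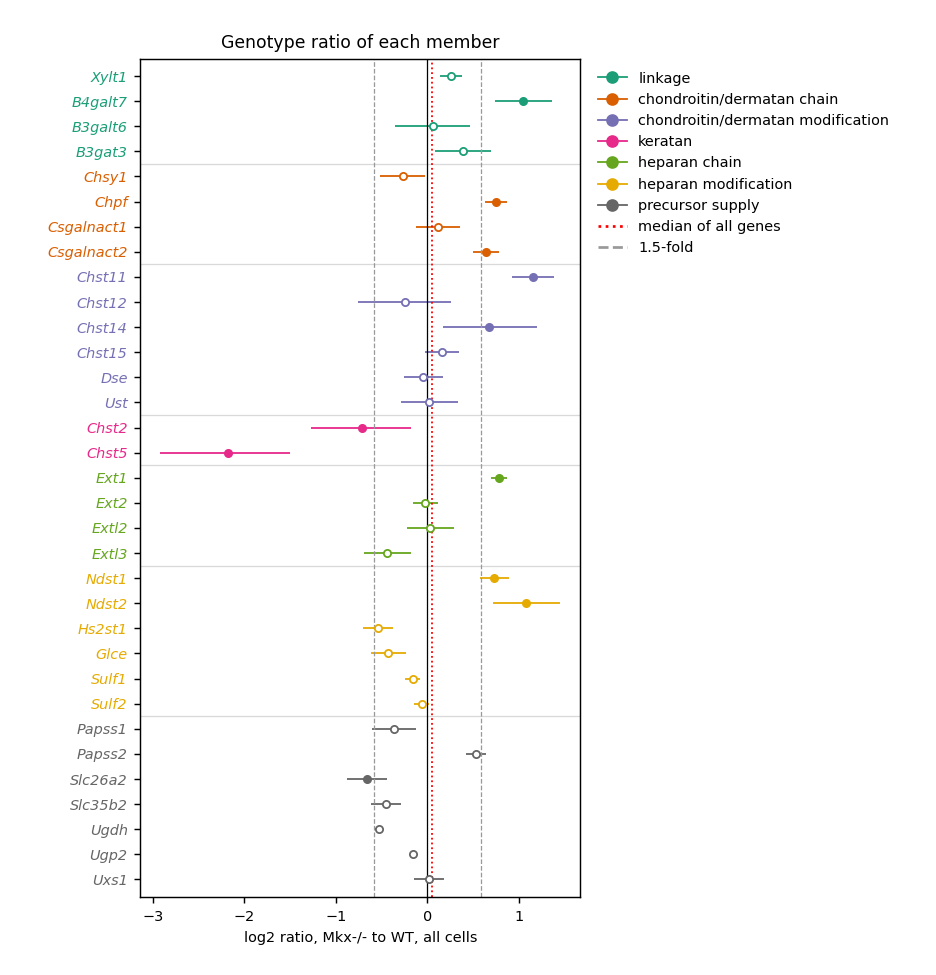
Log2 ratio of Mkx-/- to WT cells with its exact 95% interval for each of the 33 members over all cells, coloured by step, with called members filled, 1.5-fold dashed in grey and the median of all genes dotted in red. Ext1 (0.78), Chpf (0.75) and Ndst1 (0.73) lie to the right and Chst5 (-2.18) to the far left.

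Ext1 had the most reads of the members that were higher. It lies on chromosome 15 at 52895593 to 53177714 (mm9) and stood at 119.1 CPM (113.3 to 125.01) in WT and 205.01 CPM (197.6 to 212.6) in the mutant, with a log2 ratio of 0.78 (0.70 to 0.87). Its levels were 163.5, 126.3 and 81.9 CPM in WT TPC-like, cluster 3 and TC-like cells, and 232, 279.7 and 159.9 CPM in the Mkx-/- cells. The genotype ratio of Ext1 was 0.51 (0.37 to 0.64) for TPC-like, 1.15 (0.95 to 1.35) for cluster 3 and 0.97 (0.81 to 1.12) for TC-like cells, and was called in the last 2. The median per TC-like cell was 9.23 CPM in WT (0 to 520.0) and 81.7 in Mkx-/- (0 to 817), and the groups overlapped. Ext2, its partner in the polymerase, had 64.9 CPM (60.6 to 69.3) and 63.9 CPM (59.8 to 68.2), a ratio of -0.021 (-0.16 to 0.11), which lies below that of Ext1 beyond counting error.

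The N-deacetylase and N-sulfotransferase enzymes of heparan sulfate, Ndst1 and Ndst2, were both higher. Ndst1 stood at 38.1 CPM (34.9 to 41.5) and 63.1 CPM (58.99 to 67.3), a ratio of 0.73 (0.57 to 0.89), and its levels by state were 32.1, 29.2 and 46.1 CPM in WT TPC-like, cluster 3 and TC-like cells, and 65.6, 77.3 and 56.3 CPM in the Mkx-/- cells. Ndst2 stood at 6.75 CPM (5.44 to 8.28) and 14.3 CPM (12.4 to 16.4), a ratio of 1.08 (0.72 to 1.45), with 2.66, 15.6 and 6.50 CPM in WT TPC-like, cluster 3 and TC-like cells, and 15.8, 28.4 and 8.24 CPM in the Mkx-/- cells. Ndst1 was read in 44 of 227 WT and 65 of 224 Mkx-/- cells, but Ndst2 in 11 and 20. The Ndst2 ratio in cluster 3, 0.86, became -1.20 when cells were clustered in 10 dimensions. The later modification genes did not share this direction. Hs2st1, which sulfates iduronic acid, had -0.54 (-0.71 to -0.37), Glce, the epimerase, -0.43 (-0.62 to -0.23), Sulf1 -0.16 (-0.24 to -0.084) and Sulf2 -0.063 (-0.14 to 0.020), and none of the 4 was called.

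On the chondroitin side, Chpf stood at 63.4 CPM (59.2 to 67.8) in WT and 106.5 CPM (101.2 to 112.1) in the mutant, a ratio of 0.75 (0.63 to 0.87). Csgalnact2 stood at 48.8 CPM (45.1 to 52.6) and 76.1 CPM (71.6 to 80.8), a ratio of 0.64 (0.50 to 0.78), with 59.7, 57.6 and 36.9 CPM in WT TPC-like, cluster 3 and TC-like cells, and 94.4, 49.8 and 72.6 CPM in the Mkx-/- cells. Its relative Csgalnact1 had 0.11 (-0.13 to 0.35) and Chsy1 -0.27 (-0.51 to -0.025), so the chain genes did not share 1 direction. Chst11 stood at 16.6 CPM (14.5 to 18.9) and 36.97 CPM (33.9 to 40.3), a ratio of 1.16 (0.93 to 1.39), and was read in 29 WT and 43 Mkx-/- cells. Chst14 stood at 3.89 CPM (2.91 to 5.09) and 6.22 CPM (4.99 to 7.66), a ratio of 0.68 (0.17 to 1.20), from 8 and 14 cells, with 5.11, 0.411 and 4.28 CPM in WT TPC-like, cluster 3 and TC-like cells, and 7.92, 4.11 and 5.78 CPM in the Mkx-/- cells. Chst12, Chst15, Dse and Ust lay between -0.25 and 0.16 and were not called.

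B4galt7 stood at 9.39 CPM (7.83 to 11.2) and 19.4 CPM (17.2 to 21.9), a ratio of 1.05 (0.74 to 1.36). It was the one member called in the same direction in all 3 cell states, with ratios of 0.88 (0.49 to 1.28) for TPC-like, 1.93 (0.89 to 3.10) for cluster 3 and 1.19 (0.60 to 1.81) for TC-like cells. It was called over all cells under each of 11 alternatives, though 17 WT and 24 Mkx-/- cells held a read of it, and in TPC-like cells the ratio was 0.46 without the leading cell of each group. The calls in cluster 3 and TC-like cells were each lost under 1 of 14 alternatives. The other linkage enzymes, Xylt1, B3galt6 and B3gat3, lay between 0.059 and 0.39 over all cells.

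Among the members that were lower, Slc26a2 stood at 31.8 CPM (28.9 to 34.98) and 20.2 CPM (17.9 to 22.7), a ratio of -0.66 (-0.88 to -0.44), from 29 and 27 cells. Chst5 stood at 7.04 CPM (5.70 to 8.60) and 1.56 CPM (0.975 to 2.35), a ratio of -2.18 (-2.92 to -1.50), from 6 and 3 cells. Chst2 stood at 5.58 CPM (4.39 to 6.98) and 3.39 CPM (2.50 to 4.50), a ratio of -0.72 (-1.27 to -0.18), with 6.75, 2.88 and 5.70 CPM in WT TPC-like, cluster 3 and TC-like cells, and 5.63, 0.823 and 2.75 CPM in the Mkx-/- cells. Both keratan genes thus rest on 13 cells or fewer in a genotype.

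Counting error understates how uncertain these values are, since reads of 1 cell share 1 amplification. Of the 11 members called, 6 were called under all 11 alternatives that applied, namely B4galt7, Chst11, Chst5, Ext1, Ndst1 and Ndst2. The Csgalnact2 call was lost under 3 of the 11 and that of Chst14, Chst2 and Slc26a2 under 1 each. The Chpf ratio was 0.54 and no longer called without cells that held markers of other types, and by the mean level per cell.

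The third comparison set the genotypes side by side within each cell state. In TPC-like cells 7 members were higher in Mkx-/- cells (20.1% of all genes) and 8 were lower (18.5% of all genes). In cluster 3, 13 were higher (39.4% of the members, against 23.6% of all genes) and 3 were lower (9.09%, against 23.3% of all genes). The 13 were Xylt1, B4galt7, B3gat3, Chpf, Chst11, Chst14, Ext1, Ext2, Ndst1, Ndst2, Sulf1, Papss2 and Slc35b2, and the 3 were Ust, Hs2st1 and Papss1. Of these 16 calls, 7 held under every alternative. Ndst2, Ust and Hs2st1 changed sign under an alternative, and Chst14 gave no ratio without the leading cell of each group. The Chst14 call held under 10 of 14 alternatives. The calls of Chst14 and B3gat3 each rest on 3 or fewer WT reads in cluster 3. The predicted Gm loci that lead cluster 3 took 36139 CPM there in WT and 7814 CPM in Mkx-/- cells, and their part in the cluster 3 ratios was not tested. In TC-like cells 7 were higher (29% of all genes) and 6 were lower (16.5% of all genes), and the median ratio of all genes there was 0.20. Relative to that median 6 members were higher (22.3% of all genes) and 9 were lower (21.6% of all genes) in TC-like cells. The members lower in TPC-like cells were Ugdh, Slc26a2, Slc35b2, Chsy1, Chpf, Extl3, Hs2st1 and B3galt6, which include 3 of the 7 genes of precursor supply.

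**Figure D5:**
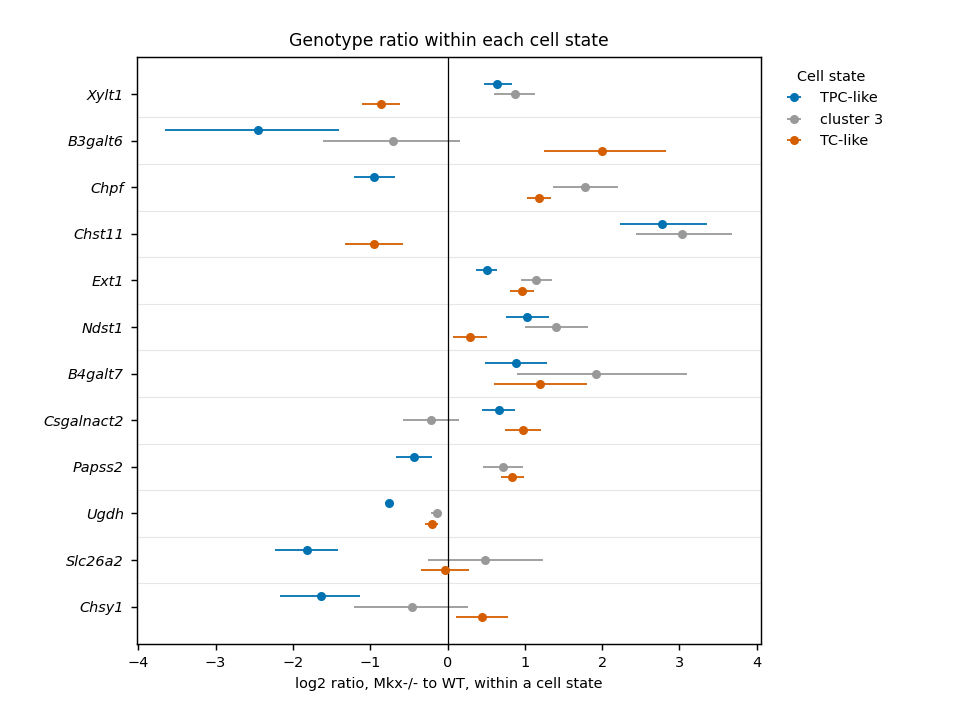
Log2 ratio of Mkx-/- to WT within TPC-like (blue), cluster 3 (grey) and TC-like (orange) cells for 12 members, with exact 95% intervals. Chpf and B3galt6 lie below 0 in TPC-like and above 0 in TC-like cells, Chst11 and Xylt1 the other way round, and B4galt7 above 0 in all 3.

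Between TPC-like and TC-like cells, 4 members were called in opposite genotype directions, 12.1% of the members against 9.64% of all genes. Chpf was lower in Mkx-/- TPC-like cells, at -0.95 (-1.21 to -0.68), and higher in Mkx-/- TC-like cells, at 1.18 (1.02 to 1.34), and in cluster 3, at 1.77 (1.36 to 2.21). Chst11 went the other way, with 6.55, 10.7 and 26.6 CPM in WT TPC-like, cluster 3 and TC-like cells, and 44.8, 87.6 and 13.7 CPM in the Mkx-/- cells, and genotype ratios of 2.77 (2.23 to 3.36), 3.03 (2.44 to 3.68) and -0.95 (-1.33 to -0.58) in the same order of states. In Mkx-/- TPC-like cells Chst11 was read in 10 of 94 cells and 46.05% of its reads came from 1 cell, and without the leading cells the ratio was 2.64. Xylt1 had genotype ratios of 0.65 (0.47 to 0.83) in TPC-like and -0.86 (-1.11 to -0.62) in TC-like cells, and was read in 48 of 98, 51 of 94, 34 of 73 and 35 of 80 cells of these groups. B3galt6, which adds the second galactose of the linkage sugar, had 10.2, 12.8 and 2.85 CPM in WT TPC-like, cluster 3 and TC-like cells, and 1.88, 7.82 and 11.4 CPM in the Mkx-/- cells, with genotype ratios of -2.45 (-3.66 to -1.41) in TPC-like and 2.002 (1.25 to 2.83) in TC-like cells. Its WT TC-like reads came from 2 cells and its Mkx-/- TPC-like reads from 2 cells. The TPC-like call of Xylt1 was lost under 4 of 14 alternatives, and that of Chpf also with the members kept in the clustering. With cells clustered in 10 dimensions the TPC-like calls of B3galt6 and Chpf were lost, at -0.41 and -0.48.

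The share of cells with a read gives each cell the same weight. After every cell was thinned to 28000 reads, which left out 23 WT and 18 Mkx-/- shallower cells, the interval of the genotype difference in share excluded 0 for 4 of the 33 members over all cells, all higher in Mkx-/- cells. That is 12.1% of the members, against 9.05% of all genes higher and 3.03% lower, and the median cell held 3106.5 detected genes in Mkx-/- and 2892 in WT. Ext1 was read in 49.5% of WT and 67.5% of Mkx-/- cells, a difference of 17.97 percentage points (Newcombe interval 8.44 to 27.04), and unthinned in 54.2% and 70.5%. The differences were 15.3 points (5.93 to 24.2) for Csgalnact2, 13.4 (4.62 to 21.9) for Chpf and 10.03 (2.05 to 17.9) for Ndst1. Unthinned, these 3 were read in 33.9% and 47.8%, 29.1% and 37.9%, and 19.4% and 29.02% of WT and Mkx-/- cells. In TC-like cells the thinned share of Chpf was 28.8% in WT and 55% in Mkx-/- cells, a difference of 26.2 points (10.6 to 40.1). In TPC-like cells the thinned Chpf share did not differ beyond its interval, at -0.930 points (-13 to 11.2). These intervals cover the number of cells only, and cells of 1 genotype are not replicates of it.

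Between states, the thinned share was lower in TC-like cells in both genotypes for Ugp2, Ugdh and Sulf1, 9.09% of the members against 4.49% of all genes. Ugp2 went from 98.8% of TPC-like to 64.4% of TC-like cells in WT and from 100% to 65% in Mkx-/- cells. Sulf1 went from 72.1% to 41.1% and from 64.7% to 38.8%. In Mkx-/- cells the share was higher in TC-like cells for Chpf, by 35 points (20.4 to 47.6), and for Papss2, by 23.9 points (9.44 to 37.1).

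Other genes of the pathway were counted by list. Among core proteins that carry chondroitin or dermatan chains, 8 of 9 listed genes passed the read minimum and 3 were higher in Mkx-/- cells over all cells (16% of all genes were, and 13.1% were lower), namely Bgn at 1.23 (1.19 to 1.28), Epyc at 2.88 (2.66 to 3.11) and Acan at 1.19 (0.87 to 1.51). Of the 5 core proteins with keratan chains, Prelp was higher at 1.09 (1.05 to 1.12), and of the 9 measured ones with heparan chains, Gpc4 at 0.83 (0.64 to 1.03). None of these 3 lists had a member called lower. Of the 12 measured breakdown enzymes, Hexa at 0.83 (0.70 to 0.96), Hyal2 at 1.45 (0.86 to 2.08) and Ids at 0.62 (0.47 to 0.77) were higher. Of the 11 genes of the remaining supply list 1 was higher and 2 were lower. Pgm3 was higher at 2.05 (1.35 to 2.81) and Slc35d2 at -1.15 (-1.65 to -0.66) was lower. Has2, a hyaluronan synthase, was higher at 0.70 (0.45 to 0.95), as was the heparan sulfotransferase Hs3st3a1 at 1.52 (1.04 to 2.03), and the further linkage, chondroitin and keratan genes had none called.

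Between states, the same lists were counted in both genotypes at once, where 6.31% of all genes were higher in TC-like cells and 28.8% were lower. Of the core proteins with keratan chains, 2 of 5 were higher and 1 was lower, of those with chondroitin or dermatan chains, 2 of 8 were higher and 1 was lower, and of those with heparan chains, 1 of 9 was higher and 3 were lower. Fmod, 1 of the 2 higher keratan core proteins, was among the markers that named the TC-like cells, so its direction is no separate result. Both measured hyaluronan synthases were lower. Of the 11 further supply genes 4 were lower and 1 was higher, and of the 12 breakdown enzymes 3 were lower and 2 were higher. Relative to the median of all genes, where 12.3% of all genes were higher and 12.4% were lower, the lower counts were 0, 0 and 1 for the core protein lists, 1 for the hyaluronan synthases, 4 for the supply genes and 0 for the breakdown enzymes. The higher counts were then 2, 4 and 2 for the core protein lists, 0 for the hyaluronan synthases, 2 for the supply genes and 3 for the breakdown enzymes.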

How the data were processed

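Reads of single cells from tail tendon were counted per gene by the authors and deposited as 1 table of raw read counts with a gene symbol per row and a cell per column. Per the study's methods, bad reads were removed with AfterQC, low-quality 3' ends were trimmed with NGSQCToolkit, and reads were aligned with bowtie2 and counted with featureCounts. Per the series' design text, wells without a cell or with several were left out. The methods name the mm9 build and the submitters' processing notes mm10, and the table holds no coordinates, so gene positions come from the NCBIM37 annotation and promoters from RefSeq (GRCm38.p6), which held 26 of the 33 members. bowtie2 does not split reads over introns, and the use of strand is not given in the sources used here. The members and gene lists were chosen with earlier results of these data known.

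Cells took their genotype from the genotype label of the sample whose title matched the column name. Seurat 5.3.0 (R 4.3.3) integrated the genotypes on variable genes without members or other genes of the pathway, with 4 dimensions and a resolution of 0.4, and no doublet caller was run. Reads were summed per genotype and cluster and divided by total reads. Intervals were exact Poisson for CPM, conditional binomial for ratios and Newcombe for differences in share (scipy 1.17.1), and cover counting error only. With 1 sample per genotype no test was made. Named with full values were members called between genotypes over all cells, or called in opposite genotype directions in TPC-like and TC-like cells. Members called in the same direction between states in both genotypes were also named so. A gene with 0 reads in a group was set to a floor of 3 reads. TMM factors came from edgeR 4.0.16. The scripts were tested on simulated counts that held counting error only, so the test does not cover reads concentrated in single cells. The authors' cell states were not used. 1 result of the further supply list is not reported here.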

Additional observations from a re-analysis of the deposited data

Results flagged for a closer look

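For 4 members the ratio of Mkx-/- to WT passed 1.5-fold among TPC-like cells and passed it the other way among TC-like cells. The difference between the cell states was not tested, because each genotype is 1 sample. Of all genes 9.64% met the same criterion, against 12.1% of the members. Xylt1, which starts the linkage sugar, had a log2 ratio of 0.65 for TPC-like and -0.86 for TC-like cells, and Chst11, a chondroitin sulfotransferase, 2.77 and -0.95. B3galt6, a galactosyltransferase of the linkage sugar, had -2.45 and 2.00, and Chpf, the chondroitin polymerising factor, -0.95 and 1.18. Of the 4, Chst11 was called in both states under each of 14 alternatives. Its thinned share of cells with a read, however, did not differ between genotypes beyond its interval in either state. The difference was 2.41 points (-5.29 to 10.4) in TPC-like and -1.56 points (-13.7 to 10.4) in TC-like cells.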

How the results depend on the processing

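No paired analysis was possible because each genotype is 1 sample and the labels name neither animal nor chip. Counts of called members moved as follows. The 8 members higher in Mkx-/- cells became 3 at 2-fold. The 3 members lower in Mkx-/- cells became 5 with library size taken without Col1a1, Col1a2 and Sparc, without cells with markers of other types, with no read minimum, or with ratios centred on the median of all genes, an alternative chosen after seeing the data. They became 7 by the mean of per-cell CPM or thinned to 28000 reads, and 1 at 300 reads or more or at 2-fold. The 1 member higher in TC-like cells in both genotypes became 3 (library size without the 3 genes), 4 (TMM, median-of-ratios or centred), 2 (no read minimum) and 0 (mean of per-cell CPM, without the leading cells, or 300 reads).

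The member median of the TC-like to TPC-like log2 ratio, -0.56 in WT, became 0.068 with TMM, 0.060 with median-of-ratios scaling, 0.11 centred and -0.065 with library size without the 3 genes. In Mkx-/- cells, -0.51 became -0.072, -0.047 and -0.061 with the first 3 and -0.80 without the leading cells. The cause of these shifts was not tested.

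Single members changed sign as follows, and the cause was not tested. Clustering in 10 dimensions gave -0.095 (TC-like to TPC-like) and -0.43 (cluster 3 to TPC-like) for B3galt6 in Mkx-/- cells, -1.44 for Ndst2 in the latter comparison and -1.20 for its genotype ratio in cluster 3. Clustering without genes that differed between genotypes gave 0.061 for Hs2st1 (genotype, cluster 3) and 0.19 for Slc26a2 (cluster 3 to TPC-like, WT). Cells with 2500 genes or more gave 1.93 for Ust (genotype, cluster 3), and cells under 5000 genes 0.21 for Chst2 (TC-like to TPC-like, Mkx-/-).

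Cells are no replicates of a genotype, so no value here says how far mice differ. Reads without molecular identifiers and few cells with a read limit most sulfotransferases.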

Other observations

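Some further genes are given as values, and were chosen after their values were seen. Among genes on the way to UDP-N-acetylglucosamine, Gfpt2, an entry enzyme, had a TC-like to TPC-like log2 ratio of -2.12 (-2.18 to -2.06) for WT and -1.51 (-1.57 to -1.45) for mutant cells, and the related Gfpt1 -1.58 and -0.29. Gnpnat1 had -1.73 and -1.49 and Uap1 -1.98 and -1.43. For Pgm3 the ratio was -1.20 (-2.04 to -0.39) for mutant cells, and for WT cells, with 5 and 13 reads in TPC-like and TC-like cells, its interval included 0. The hyaluronan synthases had -2.18 and -0.80 for Has1 and -2.75 and -1.82 for Has2. Relative to the median of all genes, which was -0.67 and -0.45, the Has1 ratio in mutant cells was no longer past 1.5-fold, and of the Pgm3 ratios only that in WT cells, which was higher, had an interval that did not include 0. Among core proteins, Acan, the large chondroitin sulfate proteoglycan, had 6.48 (3.97 to 11.79) and 6.56 (4.69 to 9.61). In both genotypes the TPC-like reads of Acan were fewer than the floor of 3 reads used for sums of 0. The size of its ratios is therefore uncertain.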
